A study of Mus musculus with 2 samples.

Results

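The miR-183 cluster of the mouse consists of 3 miRNA genes, Mir183, Mir96 and Mir182, which lie close together on 1 strand of chromosome 6. The genes were chosen by their annotated symbols, with earlier results of these data known, and make up 3 of the 1973 miRNA genes in each table of counts. Small RNA under 30 nt was sequenced from whole stomachs of 2 newborn mice (postnatal day 0) of the B6NCrl strain. The pups came from 1 pregnant dam, had no treatment named in the labels and are of unrecorded sex. With 1 group of samples, the results are levels, the proportions of the members and the difference between 2 littermates, and p-values between the pups compare these 2 libraries. Each table gives reads per miRNA gene, and levels here are counts on the gene's own strand per 1000000 such counts (CPM), from 4463355 counts in pup 1 and 3454655 in pup 2.

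MiRNAs are short RNAs cut from a hairpin in a longer primary transcript, and they repress messenger RNAs that pair with their seed, bases 2 to 8 from the 5′ end. Genes of a polycistronic cluster share 1 primary transcript, from which each hairpin is released on its own. The miR-183 cluster is known above all from sensory organs, where photoreceptors, hair cells of the inner ear and sensory neurons express it strongly, and changes in the seed of miR-96 cause hearing loss in mice and humans. In human cells miR-96 and miR-182 target the messenger RNA of the transcription factor FOXO1. A stomach holds epithelium, endocrine cells, smooth muscle and enteric neurons together. In counts from the whole tissue, fewer cells of a type and less RNA per cell cannot be told apart.

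The 3 mature miRNAs of the 5′ arms are shown because they define which messenger RNAs each member can pair with, and their similarity bears on whether reads of 1 member could be counted for another. They are read 5′ to 3′ from RefSeq (GRCm38.p6), with the seed in capitals.
miR-183-5p: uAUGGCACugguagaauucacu
miR-96-5p: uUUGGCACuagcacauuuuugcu
miR-182-5p: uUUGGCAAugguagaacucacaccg
The members have 3 different seeds that overlap in part. Counted from 1 at the 5′ end, the seeds of miR-183-5p and miR-96-5p differ by A2U alone, and those of miR-96-5p and miR-182-5p by C8A alone. Those of miR-183-5p and miR-182-5p differ by both A2U and C8A. MiR-96-5p and miR-182-5p therefore hold the same bases 2 to 7, UUGGCA, and miR-183-5p and miR-96-5p the same bases 3 to 8, UGGCAC. Outside the seed the resemblance runs between the other pair. Compared without gaps from base 1, miR-183-5p and miR-182-5p were identical at 18 of 22 positions (81.8%), miR-183-5p and miR-96-5p at 13 of 22 (59.1%), and miR-96-5p and miR-182-5p at 12 of 23 (52.2%).

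Among 1738 mature mouse miRNAs in the RefSeq table, 1 other had the seed of a member's 5′ arm. This was miR-1271-5p, which holds UUGGCAC like miR-96-5p.
miR-1271-5p: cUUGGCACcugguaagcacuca
Its gene, annotated as Gm24195 on chromosome 13, had 0 counts in pup 1 and 0 in pup 2, which allows levels of up to 0.672 and 0.868 CPM (3 counts per library, counting error only). No other mature miRNA in the table had the seed of miR-183-5p or of miR-182-5p. Bases 3 to 8 of miR-182-5p recur in miR-7022-5p, whose gene Mir7022 also had 0 counts in both pups.

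The hairpins show where the mature strands lie, with the 5′ and 3′ arm miRNAs in capitals. The deposited counts are per gene, so reads of the 2 arms are added together.
Mir183: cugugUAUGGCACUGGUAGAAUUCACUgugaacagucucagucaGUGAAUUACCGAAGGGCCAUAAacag
Mir96: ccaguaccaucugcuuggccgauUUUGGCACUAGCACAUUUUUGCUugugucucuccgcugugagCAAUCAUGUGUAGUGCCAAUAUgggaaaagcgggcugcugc
Mir182: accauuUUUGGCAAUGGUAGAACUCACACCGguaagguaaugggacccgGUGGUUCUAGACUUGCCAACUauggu
The longest run that any 2 of these hairpins have in common is 8 nt, and the longest run that each has in common with any of the other hairpins among 1005 in the table is 10 nt. This is shorter than a mature miRNA, so a full-length read of 1 member matches no other hairpin of the table in full. None of the 3 genes is among the 919 that have 20 nt or more of their hairpin in common with another. Reads of such genes may be lost among the multimapping reads, which made up 26.0% of the table of pup 1 and 25.7% of that of pup 2.

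Mir183 (ENSMUSG00000065619.2) lies at chr6:30169668-30169737, Mir96 (ENSMUSG00000065586.1) at chr6:30169446-30169551 and Mir182 (ENSMUSG00000076361.1) at chr6:30165918-30165992, all on the minus strand of GRCm38, the assembly that mm10 names. Along the strand Mir183 comes first, Mir96 follows after 116 nt, and Mir182 lies a further 3453 nt downstream, so the cluster spans 3820 nt. In GENCODE M21 no other gene overlaps this span on either strand, and no host gene encloses it. Nearby lies the long non-coding RNA Rncr4, on the opposite strand and 3155 nt upstream of Mir183. The protein-coding gene Nrf1 is also on the opposite strand, 12459 nt beyond Mir182. Whether other genes lie closer was not examined.

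**Figure D1:**
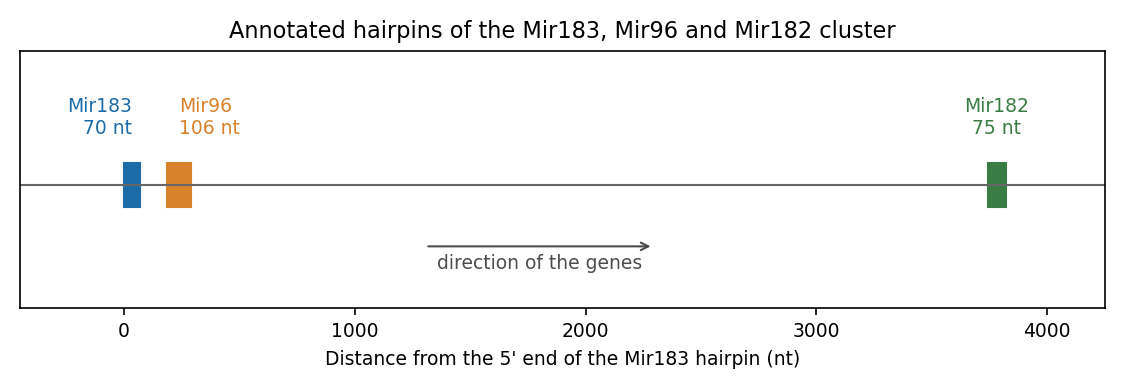
Map of the 3 annotated hairpins along their strand, drawn to scale as distance in nt from the 5′ end of the Mir183 hairpin. Mir183 and Mir96 lie 116 nt apart, and Mir182 lies 3453 nt beyond Mir96.

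The cluster was well expressed in the newborn stomach, with 3 of 3 members detected at 10 or more counts in each library, a minimum that 305 of 1973 genes (15.5%) passed. Mir182, the last gene of the cluster, was the highest member, Mir183 was second and Mir96 lowest, in this order in both pups. The members had 8.27 (Mir96), 11.9 (Mir183) and 23.0 (Mir182) times the median mean level of 166 CPM over the detected genes. Together they held 28451 counts in pup 1 and 27400 in pup 2.

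Mir182 had 14009 counts in pup 1, or 3139 CPM (exact 95% Poisson interval 3087 to 3191), and 15523 counts in pup 2, or 4493 CPM (4423 to 4565). Its mean was 3816 ± 958 CPM (SD, n = 2), and it ranked 40th in pup 1 and 31st in pup 2 among the 305 detected genes. The level in pup 2 lay well above that in pup 1, and the intervals did not overlap.

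Mir183 had 8975 counts in pup 1, or 2011 CPM (1969 to 2053), and 6638 counts in pup 2, or 1921 CPM (1876 to 1968). Its mean was 1966 ± 63.2 CPM (SD, n = 2), with ranks of 54 and 59. This was the member with the smallest spread between the pups, 3.21% of its mean, against 15.0% for Mir96 and 25.1% for Mir182.

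Mir96, the member known for its part in hearing, had 5467 counts in pup 1, or 1225 CPM (1193 to 1258), and 5239 counts in pup 2, or 1517 CPM (1476 to 1558). Its mean was 1371 ± 206 CPM (SD, n = 2), with ranks of 77 and 71. Mir96 and Mir182 thus stood higher in pup 2 by CPM, and Mir183 slightly higher in pup 1.

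**Figure D2:**
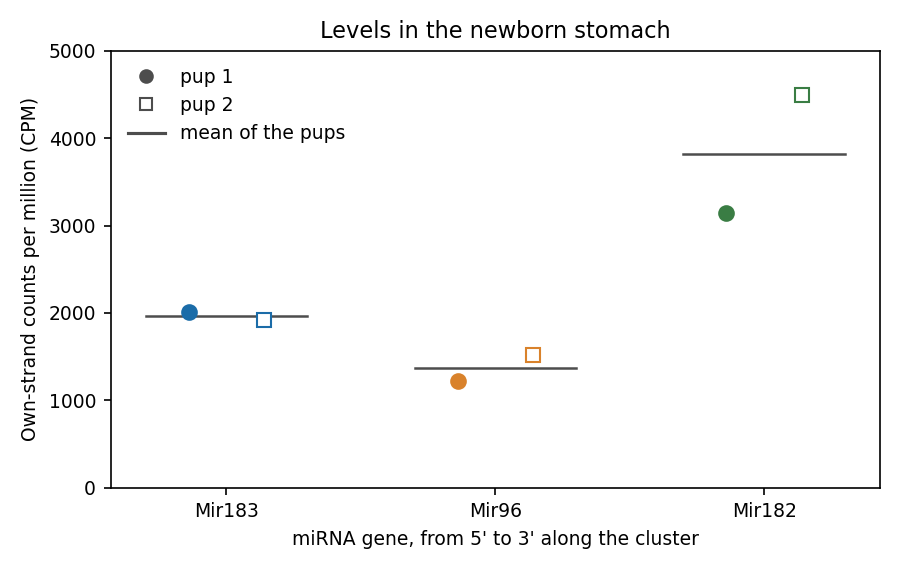
Level of each member in CPM, on a linear axis, with 1 point per pup (filled circle for pup 1, open square for pup 2), exact 95% Poisson intervals that are no taller than the points and hidden by them, and a line at the mean. Mir182 lies at 3139 and 4493 CPM, above Mir183 at 2011 and 1921 CPM and Mir96 at 1225 and 1517 CPM.

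Reads of the members came from the annotated strand almost without exception. Opposite-strand reads numbered 1 of 28452 in pup 1 (0.00351%, exact 95% binomial interval 8.9e-05% to 0.0196%) and 2 of 27402 in pup 2 (0.0073%, 0.000884% to 0.0264%). Over all miRNA genes this share was 2.26% in pup 1 and 2.15% in pup 2.

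As a set the cluster held 0.637% of own-strand counts in pup 1 (exact 95% binomial interval 0.63% to 0.645%) and 0.793% in pup 2 (0.784% to 0.803%), a mean of 0.715% ± 0.11 (SD, n = 2). Mir182 supplied 49.2% of the cluster's counts in pup 1 (48.7% to 49.8%) and 56.7% in pup 2 (56.1% to 57.2%). Mir183 supplied 31.5% in pup 1 (31.0% to 32.1%) and 24.2% in pup 2 (23.7% to 24.7%). The share of Mir96 was 19.2% in pup 1 (18.8% to 19.7%) and 19.1% in pup 2 (18.7% to 19.6%). The 2 libraries thus differed in how the larger part of the cluster was divided between Mir182 and Mir183, while the intervals of Mir96 overlapped. These intervals cover counting error only, not variation between animals.

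**Figure D3:**
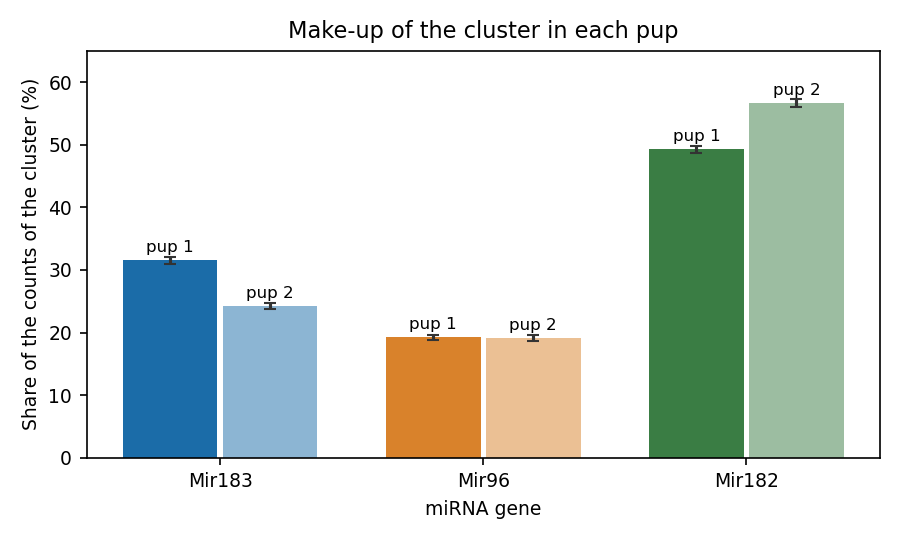
Share of the cluster's own-strand counts held by each member, in percent, with 1 bar per pup (dark for pup 1, pale for pup 2) and exact 95% binomial intervals. Mir182 makes up 49.2% and 56.7%, Mir183 31.5% and 24.2%, and Mir96 19.2% and 19.1%.

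Ratios of 2 members within a pup do not depend on how the libraries are scaled. Mir182 exceeded Mir96 2.56-fold in pup 1 (exact 95% interval 2.48 to 2.64) and 2.96-fold in pup 2 (2.87 to 3.06), a mean log2 ratio of 1.46 ± 0.15 (SD, n = 2). Mir182 exceeded Mir183 1.56-fold in pup 1 (1.52 to 1.6) and 2.34-fold in pup 2 (2.27 to 2.41), a mean of 0.93 ± 0.41 on the log2 scale. Mir183 exceeded Mir96 1.64-fold in pup 1 (1.59 to 1.7) and 1.27-fold in pup 2 (1.22 to 1.31), a mean of 0.53 ± 0.26. Each of these 3 mean ratios was larger than its SD over the pups. With 2 libraries an exact permutation test cannot give a p under 0.5, so the ratios are set against the SD only. A read stands for a whole mature miRNA, so counts were not divided by length. Per nt of annotated hairpin (75 nt for Mir182, 70 for Mir183 and 106 for Mir96) the order was unchanged, with mean ratios of 3.89 for Mir182 over Mir96, 1.78 for Mir182 over Mir183 and 2.18 for Mir183 over Mir96. Counts did not follow the order along the strand, since the middle gene was the lowest and the distant last gene the highest. Whether the libraries recover the 3 sequences equally well was not examined, and the intervals cover counting error only. The order of counts need therefore not be that of the molecules.

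The pups were compared gene by gene with a two-sided exact binomial test on the counts of all 305 detected genes. Library sizes were scaled by TMM, p was adjusted by Benjamini-Hochberg over these genes, and calls needed both an adjusted p under 0.05 and a 1.5-fold ratio. None of the 3 members was called, beside 9 of 305 genes (2.95%), of which 7 (2.3% of the 305) were higher in pup 2 and 2 (0.656%) in pup 1. Mir182 had a log2 ratio of pup 1 over pup 2 of -0.41 (exact 95% interval -0.45 to -0.38, exact binomial adjusted p = 7.6e-133), which is 1.33-fold higher in pup 2 and the 38th largest ratio either way. For Mir96 the log2 ratio was -0.21 (-0.26 to -0.15, exact binomial adjusted p = 1.1e-12), or 1.15-fold higher in pup 2. Mir183 went the other way, with a log2 ratio of 0.17 (0.12 to 0.21, exact binomial adjusted p = 2.4e-12), or 1.12-fold higher in pup 1.

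These p-values cover counting error in 2 deep libraries, and an adjusted p under 0.05 at any ratio was reached by 159 of 305 genes (52.1%), the 3 members among them. Of all detected genes, 74 (24.3%) reached it with the higher level in pup 2, as did Mir182 and Mir96, and 85 (27.9%) with the higher level in pup 1, as did Mir183. The median absolute log2 ratio over the detected genes was 0.17, with Mir183 near it, Mir96 slightly above and Mir182 beyond it. With edgeR's common dispersion over the genes as the error, which corresponds to a coefficient of variation of 11.4% between the pups, Mir182 had an unadjusted p of 0.077 in edgeR's exact test, Mir96 one of 0.384 and Mir183 one of 0.473. The adjusted p was 0.999 for each of the 3, and 1 of 305 genes (0.328%) was called. That dispersion was estimated from the same 2 pups taken as 1 group, so the differences under test are part of the error. The edgeR test can therefore call few genes and cannot decide whether the pups differ. Scaling by total counts moved the median log2 ratio of all detected genes to -0.13, against -0.02 with TMM. The members' ratios moved with it, to -0.52 for Mir182, -0.31 for Mir96 and 0.07 for Mir183, with no change of direction and none called. By totals 15 genes were called higher in pup 2 and 1 in pup 1, and with DESeq2 size factors 6 and 4.

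**Figure D4:**
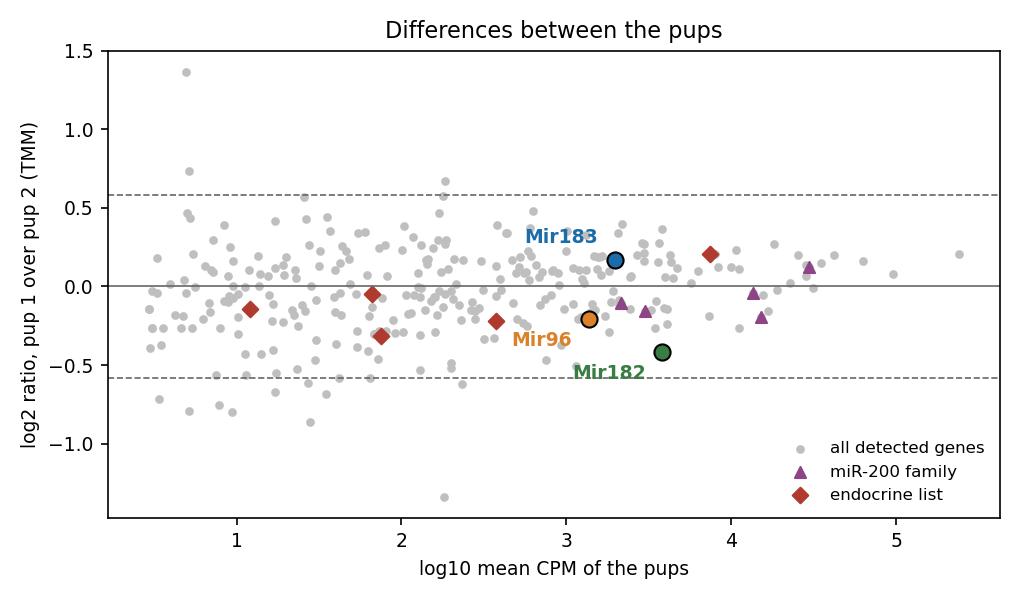
The log2 ratio of pup 1 over pup 2 after TMM scaling, plotted against the log10 mean CPM for the 305 detected genes, with dashed lines at 1.5-fold. The 3 members (large labelled points) lie between the lines at -0.41 for Mir182, -0.21 for Mir96 and 0.17 for Mir183, with the miR-200 family as triangles and the endocrine list as diamonds.

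Whether the proportions within the cluster differed between the pups was tested with a two-sided Fisher exact test per pair of genes, which needs no scaling. It was run on all 558 pairs of detected genes that lie in 1 cluster, meaning on 1 strand with gaps of at most 10 kb. Of these pairs, 406 come from a single cluster of 29 genes. Calls needed an adjusted p under 0.05 over all pairs and a 1.5-fold odds ratio. None of the 3 pairs within the miR-183 cluster was called, beside 62 of 558 pairs (11.1%). The pair of Mir182 and Mir183 lay just inside the limit, with the odds of a Mir182 read 1.498 times higher in pup 2 (log2 odds ratio of pup 1 over pup 2 -0.58, Wald 95% interval -0.64 to -0.53, exact Fisher adjusted p = 3.2e-89). For Mir183 and Mir96 the log2 odds ratio was 0.37 (0.30 to 0.45, exact Fisher adjusted p = 3.1e-23), and for Mir182 and Mir96 -0.21 (-0.27 to -0.15, exact Fisher adjusted p = 1.6e-09). With no minimum odds ratio these 3 pairs were all called, as were 224 of 558 pairs (40.1%). Here too the test covers counting error only.

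The levels of the 3 members lay within 2.76-fold of each other on average. Of 40 clusters with at least 2 detected genes, the miR-183 cluster had the 10th smallest ratio of its highest to its lowest gene, against a median of 13.0-fold and a range of 1.15-fold to 1403-fold over the 40. Among the 19 clusters in which no gene has such a 20-nt stretch in common with another hairpin, it stood 6th from the lowest, with a median of 11.2-fold. The 5 other clusters with exactly 3 detected genes had ratios from 8.63-fold, for Mir93 over Mir25, to 130-fold, for Mir341 over Mir1188. Mir1188 stood at 2.94 CPM on average, near the detection minimum. Of these 5 clusters, those of Mir23a and of Mir467c hold a gene that shares a stretch with another hairpin, which can lower its counts. Among these 5, Mir429 exceeded Mir200a 13.9-fold in an epithelial cluster. This ranking describes ratios of counts and was not tested.

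**Figure D5:**
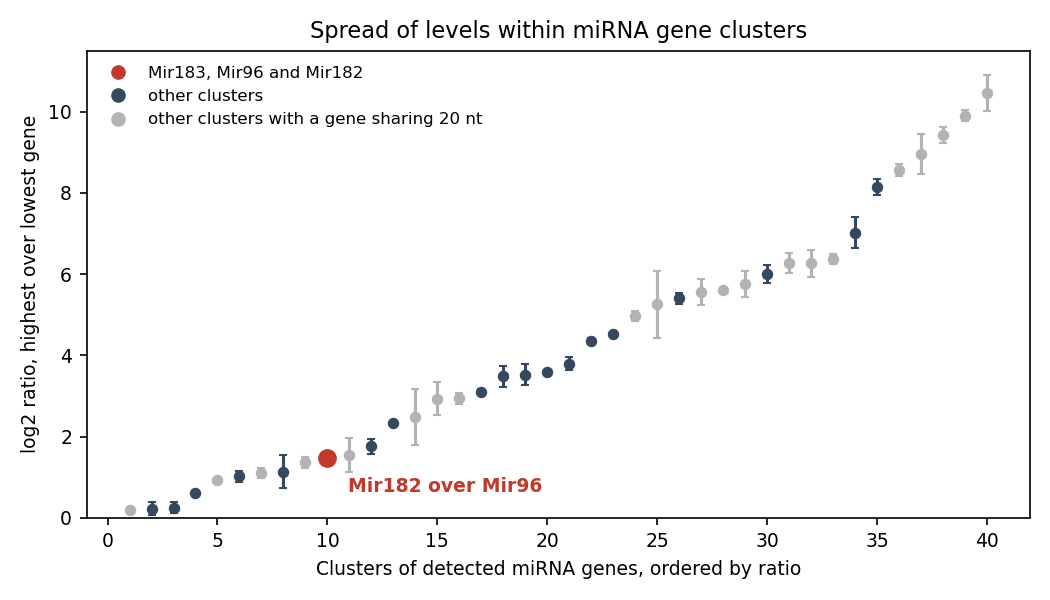
The mean log2 ratio of the highest to the lowest detected gene in each of 40 miRNA gene clusters, ordered from low to high, with the SD over the pups as bars. The miR-183 cluster (red) is 10th with a log2 ratio of 1.46, and grey points mark clusters with a gene that shares 20 nt with another hairpin.

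Marker miRNA genes of the stomach's tissues were present beside the cluster. The smooth muscle genes Mir143 and Mir145a held 24.8% ± 1.21 of own-strand counts, the squamous epithelial genes 11.4% ± 0.349 and the epithelial miR-200 family 6.36% ± 0.346 (SD, n = 2). The cluster's 0.715% ± 0.11 was of the size of 2 lists, endocrine genes at 0.795% ± 0.0292 and glandular epithelial genes at 0.792% ± 0.033. In pup 1 the cluster's 0.637% lay below the 0.815% of the endocrine list and the 0.816% of the glandular list, and in pup 2 its 0.793% lay above their 0.774% and 0.769%. Its order against both lists was thus opposite in the 2 pups, so that these shares did not differ beyond their spread. Of the 5 endocrine and 4 glandular genes, 2 in each list share a stretch with another hairpin, which can lower their counts. Mir215, of the glandular list, had 4146 CPM in pup 1 and 3451 CPM in pup 2, the opposite direction to Mir182 at a similar mean level. Mir192 had 2784 and 2599 CPM. The other 2 glandular genes, Mir194-2 and Mir194-1, went the way of Mir182, with 780 and 1086 CPM and with 445 and 552 CPM. These are the 2 glandular genes that share a stretch. Of the squamous genes, Mir203 had 94572 and 96198 CPM and Mir205 had 15272 and 18316 CPM.

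Endocrine genes were all detected, 5 of 5, with a median of 74.6 CPM, against 1966 CPM over the cluster and 166 CPM over all detected genes. This median is the level of Mir7-1, which like Mir7-2 shares a stretch with another hairpin, so it can be too low. Mir375, which islet cells and endocrine cells of the gut express, had 7681 CPM in pup 1 and 7154 CPM in pup 2. Mir7b, of a family abundant in endocrine and neural cells, had 334 and 418 CPM. The other 3, Mir7-1, Mir153 and Mir7-2, stood at 74.6, 66.4 and 12.0 CPM on average. Mir375 had a log2 ratio of pup 1 over pup 2 of 0.21. The other 4 had ratios below 0, at -0.22 for Mir7b, -0.32 for Mir7-1, -0.14 for Mir7-2 and -0.05 for Mir153, against 160 of 305 detected genes below 0. By total counts, where the median over all detected genes was -0.13, and with DESeq2 size factors the split of the endocrine genes was the same. None of the 5 was called, beside the 2.95% of all detected genes.

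The miR-200 family, which keeps epithelial cells epithelial by repressing Zeb factors, had 5 of 5 members detected and a median of 13479 CPM. Mir429 had 30024 CPM in pup 1 and 29619 CPM in pup 2, and Mir200c had 13560 and 16661 CPM. Of the 5 members, 4 had log2 ratios of pup 1 over pup 2 below 0, at -0.19 for Mir200c, -0.15 for Mir141, -0.11 for Mir200a and -0.04 for Mir200b, and Mir429 had 0.12. Of all 305 detected genes, 160 were below 0. By total counts, where the median over all detected genes was -0.13, and with DESeq2 size factors the family's split was the same. All 5 had an adjusted p under 0.05 in the exact binomial test, as did 52.1% of detected genes, and none reached 1.5-fold and was called, beside 2.95% of them. The range of the family's ratios, -0.19 to 0.12, lay inside that of the cluster, -0.41 to 0.17.

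Of listed genes typical of the retina and of neurons, only the retinal genes Mir204 and Mir211 can be read. Both stood well below the members. No neuronal gene of the list can be read, so the list gives no level for neurons. Of 7 such genes with counts given 2 were detected (28.6%), against 15.5% of all miRNA genes, and these 2 are the ones that share no 20-nt stretch with another hairpin. Mir204, of retinal pigment epithelium, had 46.2 CPM in pup 1 and 41.4 CPM in pup 2, which gives no level for photoreceptors. Mir211 stood at 6.95 CPM in each pup. Mir124a-1, Mir124a-2, Mir124a-3 and Mir9-2 had 0 counts in both pups, and Mir9-3 had 1 and 3. These 5 genes share a stretch with other hairpins, so their reads can be missing and neither their levels nor the summed level of the list can be read from these counts. The cells from which the reads of Mir183, Mir96 and Mir182 came were not resolved.

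By level over the 2 pups, other genes stood very near each member. The 2 detected genes nearest to a member were taken by Euclidean distance in log2 CPM over the 2 libraries. These were Mir130b (distance 0.15) and Mir369 (0.15) for Mir183, Mir425 (0.07) and Mir148a (0.09) for Mir96, and Mirlet7b (0.20) and Mir30a (0.21) for Mir182. Mir425, at 1280 CPM in pup 1 and 1540 CPM in pup 2, nearly matched the 1225 and 1517 CPM of Mir96. In the ranking by mean CPM, Mir182 did not differ beyond the spread from Mir30a above it (3913 ± 459 CPM) or from Mir215 below it (3799 ± 491 CPM). Mir183 likewise did not differ beyond the spread from Mir369 above it (2062 ± 238 CPM) or Mir130b below it (1931 ± 126 CPM), nor Mir96 from Mir434 below it (1321 ± 147 CPM). Mir96 was lower than Mir425 in both pups, by a mean of 0.04 ± 0.03 on the log2 scale for Mir425 over Mir96.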

How the data were processed

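Small RNA libraries from 2 newborn stomachs were analysed. The authors deposited raw read counts per miRNA gene, without normalization, on mm10 with annotation M4, per the file headers of the accompanying descriptions; no label or header names the aligner or the counting tool. The strand column with the larger total was taken as the own strand. Rows that name no gene, 36.5% of reads in pup 1 and 36.3% in pup 2, were left out of totals. GENCODE M21 matched 1894 of 1973 identifiers. RefSeq sequences (GRCm38.p6) matched 3 of 3 members and equalled the M21 hairpins.

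Genes with at least 10 counts in each library entered the tests, run with scipy 1.17.1, edgeR 4.0.16 and DESeq2 1.42.0 (R 4.3.3). Tests were checked on simulated Poisson counts without variation between animals, which does not show how they behave where animals vary. No molecular identifiers are described, so PCR copies may count more than once, and intervals and floors cover counting error only. The genes named are the members, 2 nearest genes each, up to 2 highest of each list, chromosomal neighbours and genes sharing a seed. Members, lists and tests were chosen with earlier results of these data known. Chosen for naming after seeing values were the genes next to a member in the ranking and the highest and lowest genes of other clusters. So were the lower endocrine and glandular genes, and the retinal and neural genes at or near 0. Mir9-1 was not analysed here.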

Additional observations from a re-analysis of the deposited data

How the results depend on the processing

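The order Mir182, Mir183, Mir96 held under every alternative tried for levels and ratios, but most of these could not have changed it. A different total or scaling multiplies all members of a library by a common factor. Leaving out 1 pup repeats the order of the other, and opposite-strand reads were too few to alter it. Only division by hairpin length could have changed the order, and it did not. Over all reads the cluster's share was 0.445%, and without Mir143 in the total it was 0.942%. Per nt of hairpin the log2 ratio was 1.96 for Mir182 over Mir96 and 1.13 for Mir183 over Mir96. Leaving out 1 pup gave shares of 0.637% to 0.793% and log2 ratios of 1.36 to 1.57 (Mir182 over Mir96), 0.64 to 1.23 (Mir182 over Mir183) and 0.34 to 0.72 (Mir183 over Mir96). Without a minimum ratio 159 genes were called in the pup comparison, by total counts 16 and by edgeR 1, against 9. Members were called only without that minimum, at log2 ratios of -0.41 (Mir182), -0.21 (Mir96) and 0.17 (Mir183). Over the scalings these ran from -0.52 to -0.39, from -0.31 to -0.18 and from 0.07 to 0.19. Pairs called numbered 32 with gaps of at most 5 kb, where 321 pairs were tested, and 224 with no minimum odds ratio, against 62. The cluster's pairs were called only without the minimum, at log2 odds ratios of -0.58 (Mir182 to Mir183), -0.21 (Mir182 to Mir96) and 0.37 (Mir183 to Mir96). No paired analysis was possible because the 2 pups form a single group. With 2 littermates, variation between animals of 1 gene cannot be separated from that of the libraries.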

Other observations

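The 3′ arms of the cluster also have relatives. The seed of miR-96-3p recurs in miR-3475-5p, whose gene Mir3475 had 9 counts in pup 1 and 8 in pup 2, under the detection minimum of 10. Bases 3 to 8 of miR-182-3p recur in miR-152-5p, whose gene Mir152 stood at 278 ± 42.2 CPM (SD, n = 2). The counts do not separate arms, so the part of these arms in the totals is unknown. On chromosome 6 the nearest miRNA genes on either side differed widely. Gm23049, 177428 nt away, had 0 counts in both pups, while Mir335, 571561 nt away on the opposite strand and within the imprinted gene Mest, had 81321 counts in pup 1 and 68724 in pup 2.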
